A study of Homo sapiens with 6 samples.

Results

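The genes examined were the 5 members of the lysosome-associated membrane protein (LAMP) family, LAMP5, LAMP1, LAMP2, LAMP3 and CD68, of 39771 gene rows in the deposited table. They were chosen by symbol from the family's membership, with the knockdown target first, and not from their values. Each symbol matched 1 row. RNA had been measured in MOLM-13, a human acute myeloid leukaemia cell line with the MLL-AF9 translocation, after lentiviral transduction and selection with puromycin. The 4 shLAMP5 libraries came from cells given a short hairpin RNA against LAMP5, and the 2 shNT libraries from cells given a non-targeting hairpin. All 6 libraries are thus of 1 cell line that carries an integrated hairpin vector. The labels name neither the hairpin nor the harvest time of each shLAMP5 library, and these could differ among the 4. They also do not say that replicates were separate cultures, and p-values here cover only the spread among 6 libraries, part of which may be technical.

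LAMP proteins are heavily glycosylated proteins that span the lysosomal membrane, with a large domain facing the lumen and a short cytosolic tail that carries the signal for sorting to lysosomes. LAMP1 and LAMP2 are the abundant, widely made members, LAMP3 marks mature dendritic cells and CD68 marks monocytes and macrophages. LAMP5, also called BAD-LAMP, is known from neurons and from human plasmacytoid dendritic cells, where it takes part in the trafficking of an endosomal Toll-like receptor. The comparison asked what became of the rest of the family when LAMP5 was knocked down.

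The values were read as TPM, a measure of abundance per transcript length that allows levels to be compared between genes. Read numbers cannot be had from TPM, and the depth behind each value is unknown. Per library, the table summed to between 897026 and 912565 TPM, and between 12192 and 12661 rows reached 1 TPM. The library shLAMP5 2 stood apart: its median ratio to the average library was 0.8264, against 0.9975 to 1.065 in the other libraries. Several members and gene lists are also given without it. Of the 11 acute myeloid leukaemia markers listed, all 11 were above the filter on low values, among them HOXA9 (27.7 to 46.4 TPM over the 6 libraries) and CD33 (61.7 to 141 TPM). Some markers of other cells were at or near 0, with CD3E at up to 0.0489, LILRA4 of plasmacytoid dendritic cells at up to 0.0514 and COL3A1 of fibroblasts listed at 0 TPM in every library. Other members of the same lists were higher, among them CD3D, IL3RA and KRT18. Their means were 4.86, 49.6 and 18.2 TPM in shLAMP5 and 2.98, 35.5 and 20.8 TPM in shNT.

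LAMP5 RNA was lower in the shLAMP5 libraries, in the direction of their labels. LAMP5 (ENSG00000125869, on chromosome 20) measured 80.6, 65.6, 68.8 and 86.7 TPM in shLAMP5 1 to 4, against 169.9 and 282 TPM in shNT 1 and 2. The groups did not overlap, and the shLAMP5 libraries were alike, with a coefficient of variation of 13.1%, against 35.1% between the shNT libraries. The shLAMP5 mean was 33.3% of the shNT mean. A linear model fitted with limma to the 13072 genes that reached 1 TPM in 2 or more libraries gave a log2 fold change of -1.54 for shLAMP5 over shNT, on the log2(TPM + 1) scale, with a standard error of 0.248. Of these genes, 13.5% lay below both shNT libraries in all 4 shLAMP5 libraries, as LAMP5 did. LAMP5 stood at place 14 by p-value among these genes, but its limma p of 0.000275 became 0.252 after Benjamini-Hochberg adjustment over all of them. No gene passed an adjusted p of 0.05 in this fit: 0.0% of genes were called higher and 0.0% lower, and at an unadjusted p under 0.05 there were 486 higher and 686 lower, or 3.72% and 5.25%. The exact two-sided permutation p over the 15 ways to label 4 of the 6 libraries was 0.0667, the smallest that 4 libraries against 2 can give.

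The remaining LAMP5 RNA was still well expressed. In the shLAMP5 libraries LAMP5 lay above between 95.8% and 96.6% of all rows, against 98.5% and 99.1% in shNT 1 and 2. By mean level it held place 1449 among all rows in shLAMP5 and place 455 in shNT. The size of the difference rested on which shNT library was used: it was -1.17 without shNT 2 and -1.90 without shNT 1. A long noncoding gene, LAMP5-AS1, overlaps the start of LAMP5 on the opposite strand in GENCODE release 29, and was added after its values were seen. It measured 2.80, 3.14, 3.77 and 3.32 TPM in shLAMP5 1 to 4, against 3.90 and 3.82 TPM in shNT 1 and 2. Its log2 fold change was -0.19 and its limma adjusted p 0.805. The sources used here do not say whether strand was used in the quantification, and without it reads of the overlap cannot be told apart.

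**Figure D1:**
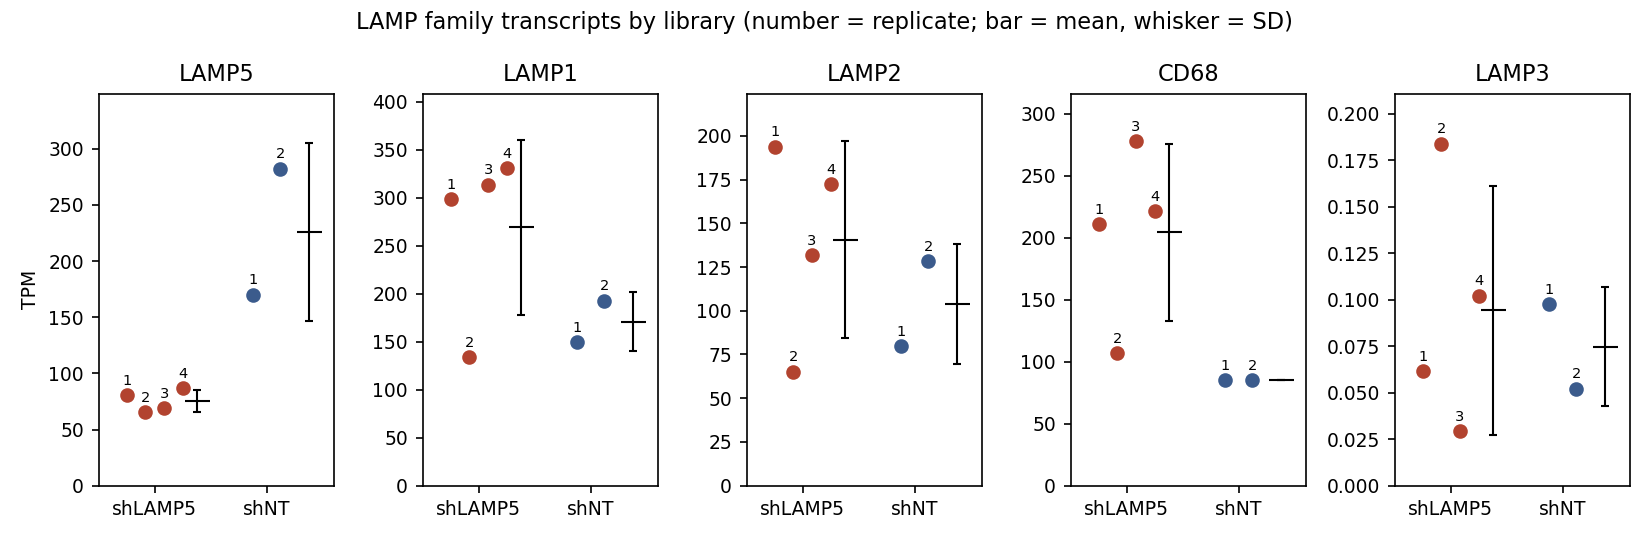
TPM of each family member in every library, shLAMP5 left of shNT, each panel on its own axis from 0; points are libraries with their replicate number, the bar is the mean and the whisker the SD (n = 4 shLAMP5, n = 2 shNT). LAMP5 is below both shNT libraries in all 4 shLAMP5 libraries and CD68 above both in all 4, while shLAMP5 2 is the lowest library for LAMP1 and LAMP2.

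CD68 was the member with the highest positive difference. CD68 (ENSG00000129226, on chromosome 17), a heavily glycosylated endosomal and lysosomal protein of phagocytes, measured 211, 107, 278 and 221 TPM in shLAMP5 1 to 4, against 85.23 and 85.24 TPM in shNT 1 and 2. No shLAMP5 library overlapped the shNT pair, although shLAMP5 2 exceeded it by much less than the others. Over all genes tested, 8.25% lay above both shNT libraries in this way and 13.5% below both. The means were 204 ± 71.4 TPM in shLAMP5 (SD, n = 4) and 85.2 ± 0.011 TPM in shNT (SD, n = 2), a ratio of 2.40. The near identity of the shNT values is that of 1 pair and does not measure the spread of CD68 well. Its log2 fold change of 1.17 had an SE of 0.354 and an interval (95%) of 0.35 to 1.99, and 0.696% of genes had a higher one. CD68 did not pass the test: the limma p was 0.011 unadjusted and 0.505 adjusted, and the exact permutation p was 0.0667. Without shLAMP5 2 the log2 fold change was 1.45. In bulk RNA, a larger share of cells with CD68 and more CD68 RNA per cell cannot be told apart.

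LAMP1 and LAMP2, the structural glycoproteins of the lysosomal membrane, were higher in 3 of the 4 shLAMP5 libraries and lower in the other one. LAMP1 (ENSG00000185896, on chromosome 13) measured 298, 134, 313 and 330.5 TPM in shLAMP5 1 to 4, against 149 and 193 TPM in shNT 1 and 2. The library shLAMP5 2 was below both shNT libraries and the other 3 above both, so the groups overlapped. LAMP1 had a log2 fold change of 0.58, an SE of 0.371 and an interval (95%) of -0.28 to 1.44. It did not pass the test (limma adjusted p 0.674, exact permutation p 0.4). Without shLAMP5 2 it was 0.88 (limma adjusted p 0.114, against 0.0677 to 1.0 over all alternatives tried).

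LAMP2 (ENSG00000005893, on chromosome X), of which a splice form is the receptor of chaperone-mediated autophagy, measured 194, 65.2, 132 and 172 TPM in shLAMP5 1 to 4, against 79.8 and 128 TPM in shNT 1 and 2. The order of libraries was that of LAMP1 in that shLAMP5 2 was the lowest of all 6, but shLAMP5 3 was here close to shNT 2. LAMP2 had a log2 fold change of 0.36, an SE of 0.432 and an interval (95%) of -0.64 to 1.36. It did not pass the test (limma adjusted p 0.833, exact permutation p 0.6). This value depended on single libraries: it was 0.02 without shNT 1, 0.17 without shLAMP5 1, 0.23 without shLAMP5 4, 0.70 without shNT 2 and 0.69 without shLAMP5 2. RefSeq lists 3 curated LAMP2 transcripts, and the gene level values do not separate them.

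LAMP3 (ENSG00000078081, on chromosome 3), the dendritic cell member, was at the edge of detection. It measured 0.0617, 0.184, 0.0293 and 0.102 TPM in shLAMP5 1 to 4, against 0.0975 and 0.0521 TPM in shNT 1 and 2. It did not reach 1 TPM in any library and was not tested, so that 4 of the 5 members entered the fit, and no fold is given. Some other markers of mature dendritic cells were also near 0, with CCR7 at up to 1.65 TPM, IDO1 at up to 0.10 TPM and CCL19 listed at 0 in every library. The tested genes of that list, CD83, FSCN1 and MARCKSL1, were clearly expressed. Their means were 36.0, 43.5 and 74.1 TPM in shLAMP5 and 23.3, 50.4 and 76.5 TPM in shNT. They had log2 fold changes of 0.62, -0.24 and -0.12, and none passed the test (smallest limma adjusted p 0.793).

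**Figure D2:**
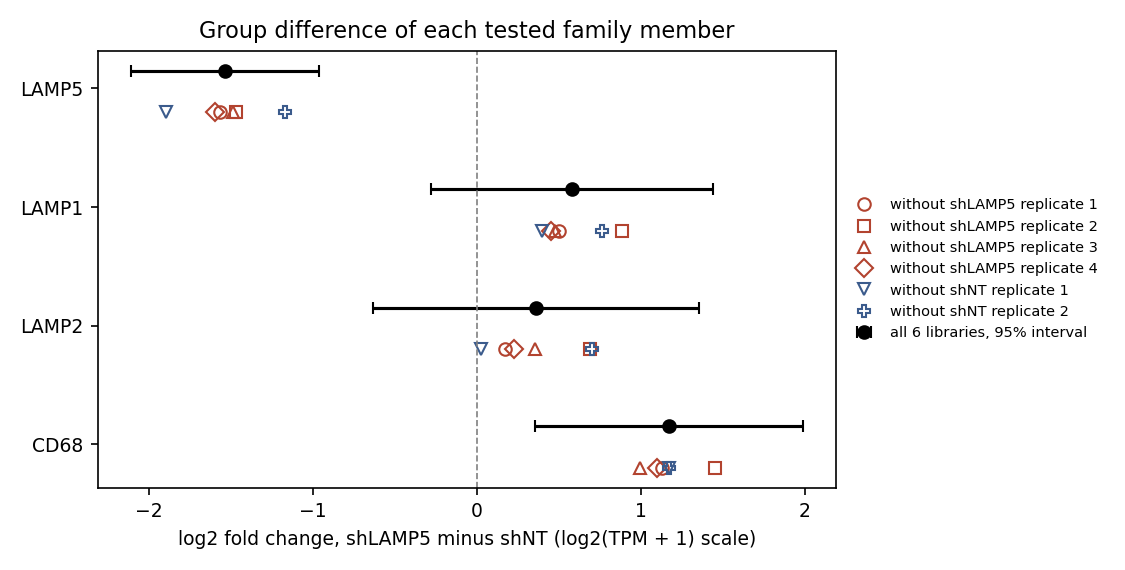
Log2 fold change of each tested member, shLAMP5 over shNT, from log2(TPM + 1) values; the black point and line are the limma value and its 95% interval over all 6 libraries, and the open symbols are the values with 1 library left out. Every LAMP5 value is below 0 and every CD68 value above 0, while LAMP2 runs from 0.02 without shNT 1 to 0.70 without shNT 2.

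The make-up of the family's transcript pool differed between the groups. LAMP5 was the most abundant member in both shNT libraries and LAMP1 in all 4 shLAMP5 libraries. In shLAMP5 1, 3 and 4 the order of levels was LAMP1, CD68, LAMP2, LAMP5 and LAMP3, and in shLAMP5 2 LAMP5 and LAMP2, at 65.6 and 65.2 TPM, were level with each other. In shNT 1 the order was LAMP5, LAMP1, CD68, LAMP2 and LAMP3, and in shNT 2 LAMP2 stood above CD68. LAMP1 exceeded LAMP2 in all 6 libraries. CD68 exceeded LAMP2 in 4 of 4 shLAMP5 libraries and in 1 of 2 shNT libraries.

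LAMP5 made up 10.3%, 17.7%, 8.69% and 10.7% of the summed TPM of the family in shLAMP5 1 to 4, against 35.1% and 41.0% in shNT 1 and 2. CD68 made up 26.9%, 28.7%, 35.1% and 27.3% in shLAMP5 1 to 4, against 17.6% and 12.4% in shNT 1 and 2. The shares of LAMP5, CD68 and LAMP1 did not overlap between the groups, and shLAMP5 2, which was low in absolute TPM, lay with its own group in all 3. The share of LAMP1 was 38.6% ± 2.03 in shLAMP5 (SD, n = 4) and 29.4% ± 2.01 in shNT (SD, n = 2), and that of LAMP2 was 20.0% ± 3.70 and 17.6% ± 1.52 in the same groups. The shares sum to a fixed total, so that a smaller LAMP5 share alone raises the others.

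The total was not smaller in shLAMP5. The 5 members summed to 783.5, 371.5, 791.5 and 810.6 TPM in shLAMP5 1 to 4, against 484.3 and 688.4 TPM in shNT 1 and 2. Without LAMP5, the other members summed to 702.9, 305.9, 722.7 and 724.0 TPM in shLAMP5 1 to 4, against 314.4 and 406.1 TPM in shNT 1 and 2. In 3 shLAMP5 libraries both sums were above both shNT libraries, and in shLAMP5 2 both were below.

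**Figure D3:**
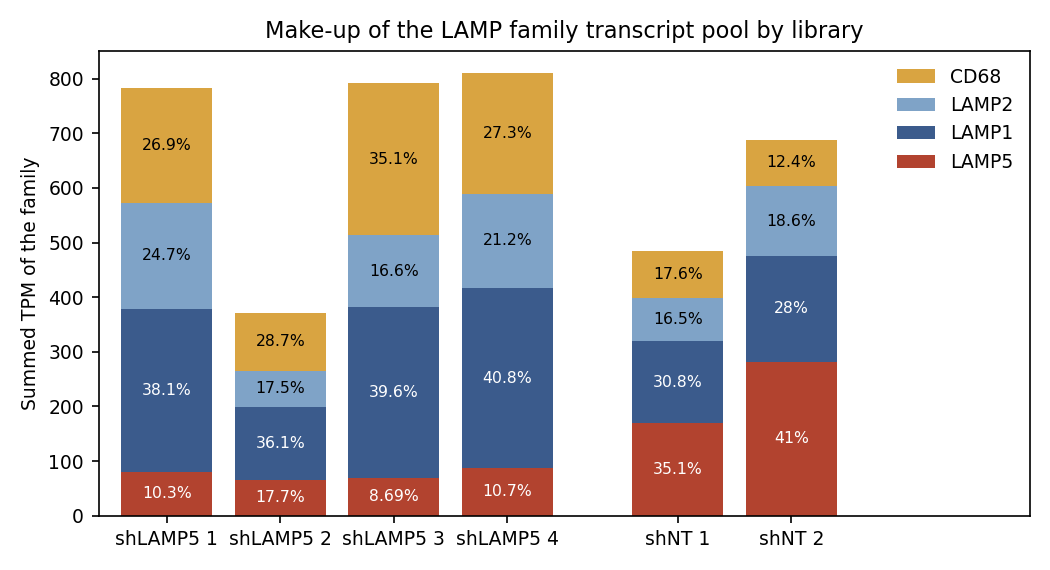
Summed TPM of LAMP5, LAMP1, LAMP2 and CD68 in each library, shLAMP5 left of shNT, with each member's share of the family total printed in its block (LAMP3, under 0.05% everywhere, is not visible). LAMP5 holds 8.69% to 17.7% in the shLAMP5 libraries and 35.1% to 41.0% in the shNT libraries.

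Ratios within a library, which do not depend on its scaling beyond the pseudocount, set LAMP5 against each relative. The log2 ratio of LAMP5 to CD68 was -1.38, -0.69, -2.0 and -1.34 in shLAMP5 1 to 4, against 0.99 and 1.72 in shNT 1 and 2. The log2 ratio of LAMP5 to LAMP1 was -1.88, -1.02, -2.17 and -1.92 in shLAMP5 1 to 4, against 0.19 and 0.55 in shNT 1 and 2. That of LAMP5 to LAMP2 was -1.25, 0.01, -0.93 and -0.98 in shLAMP5 1 to 4, against 1.08 and 1.13 in shNT 1 and 2. None of these ratios overlapped between the groups, with shLAMP5 2 the nearest to shNT in each. LAMP5 enters all 3 ratios and separated the groups by itself, with a log2 fold change of -1.54. The 3 ratios are therefore not separate results about the relatives. The group differences were -2.70 for CD68, -2.11 for LAMP1 and -1.90 for LAMP2, each with an exact two-sided permutation p of 0.0667, the smallest possible, and 0.0667 after adjustment over the 3 ratios. With so few libraries no ratio can reach 0.05. Without shLAMP5 2 the differences were -2.92 for CD68, -2.36 for LAMP1 and -2.16 for LAMP2. Among the other members, CD68 was 0.707, 0.796, 0.887 and 0.669 of LAMP1 in shLAMP5 1 to 4, against 0.571 and 0.443 in shNT 1 and 2. LAMP2 was 0.519 ± 0.0962 of LAMP1 in shLAMP5 (SD, n = 4) and 0.600 ± 0.0926 in shNT (SD, n = 2), and the groups overlapped.

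LAMP1, LAMP2 and CD68 varied together over the 6 libraries. As a description of 6 points that share library and scaling, Pearson's r of log2(TPM + 1) was 0.912 for LAMP1 with LAMP2, 0.894 for LAMP1 with CD68 and 0.675 for LAMP2 with CD68. The libraries shLAMP5 2 and shNT 1 were the lowest of the 6 for both LAMP1 and LAMP2. Among 6951 genes tested with a symbol and a mean of at least 10 TPM, the genes most like LAMP1 were CLDN12, a claudin (r 0.9971), SCPEP1, a serine carboxypeptidase (0.9969), and LIPA, the lysosomal acid lipase (0.9963). LIPA measured 171, 62.8, 201 and 192 TPM in shLAMP5 1 to 4, against 73.6 and 96.2 TPM in shNT 1 and 2, the order of libraries seen for LAMP1 except that shLAMP5 3 was the highest. Those most like LAMP2 were SRGN, the proteoglycan serglycin (0.9974), VCL, the cytoskeletal protein vinculin (0.9962), and CEP250-AS1, an antisense gene (0.9961).

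Those most like CD68 were LITAF, a membrane protein of late endosomes and lysosomes (r 0.9976), HK1, a hexokinase (0.9975), and SERPINF1, a secreted serpin (0.9974). LITAF measured 58.7, 37.7, 72.0 and 60.2 TPM in shLAMP5 1 to 4, against 34.5 TPM in each shNT library. SERPINF1 measured 60.7 ± 26.6 TPM in shLAMP5 (SD, n = 4) and 19.7 ± 1.33 TPM in shNT (SD, n = 2). Its log2 fold change was 1.45, with a limma adjusted p of 0.505. Those most like LAMP5 were QTRT1, a subunit of an enzyme that modifies transfer RNA (0.9983), GBGT1, a glycosyltransferase (0.9962), and VAPB, an endoplasmic reticulum membrane protein (0.9926). Their log2 fold changes lay between -0.61 and -0.50, against -1.54 for LAMP5, and none passed the test (limma adjusted p 0.505 to 0.52). The 6 libraries fall into 2 separate groups for LAMP5, and no test of these likenesses was made.

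The promoters of the members at hand differ in 1 motif of lysosomal genes, and are shown because LAMP1 and CD68 had their 3 highest values in the same libraries. LAMP2 had its 3 highest values there too, but no promoter sequence was at hand for LAMP2 or LAMP3. MiT/TFE factors such as TFEB and TFE3 drive many lysosomal genes through sites with the core CACGTG. RefSeq sequences (GRCh38.p14, 250 bases before to 50 after the start, plus strand) matched 3 of the 5 members, LAMP1 at chr13:113296989-113297288, CD68 at chr17:7579388-7579687 and LAMP5 at chr20:9514340-9514639. Capitals mark CACGTG, which reads the same on both strands, and GAGGAA or its complement TTCCTC, the core of sites of the myeloid factor PU.1, searched on both strands.
LAMP1: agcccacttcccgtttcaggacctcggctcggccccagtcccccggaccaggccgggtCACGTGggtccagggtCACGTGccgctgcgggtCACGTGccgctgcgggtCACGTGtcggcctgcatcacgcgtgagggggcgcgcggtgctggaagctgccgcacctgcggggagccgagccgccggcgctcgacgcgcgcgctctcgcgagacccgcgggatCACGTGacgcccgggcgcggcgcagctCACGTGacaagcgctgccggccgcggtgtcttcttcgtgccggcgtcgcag
CD68: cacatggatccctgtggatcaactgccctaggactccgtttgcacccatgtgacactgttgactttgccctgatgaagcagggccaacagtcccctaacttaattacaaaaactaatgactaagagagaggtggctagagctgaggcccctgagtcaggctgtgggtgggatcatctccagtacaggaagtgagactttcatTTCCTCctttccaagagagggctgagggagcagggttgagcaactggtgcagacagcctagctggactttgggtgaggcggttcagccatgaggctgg
LAMP5: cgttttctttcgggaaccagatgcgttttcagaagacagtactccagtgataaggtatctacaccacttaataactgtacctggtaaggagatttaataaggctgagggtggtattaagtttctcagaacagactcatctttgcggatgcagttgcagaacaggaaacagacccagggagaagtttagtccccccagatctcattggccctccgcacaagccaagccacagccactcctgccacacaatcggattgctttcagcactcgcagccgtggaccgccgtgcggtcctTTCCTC
The LAMP1 window held 6 copies of CACGTG, at 192, 176, 159, 142, 28 and 1 bases before the start, and those of CD68 and LAMP5 held 0. Of 35116 promoter windows, 7.26% held at least 1 copy, 0.664% at least 2, and the LAMP1 window was the 1 window with 5 or more. Its GC content was above the median of 58.7% over all windows. CD68 had 1 GAGGAA match on the minus strand, 48 bases before the start, and LAMP5 had 1 within the transcribed end of its window, a motif found in 27.9% of windows. A match is a run of letters and not a measured site.

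A list of 12 genes, all tested, joined regulators of lysosomal genes, among them the MiT/TFE factors that read CACGTG and the repressor ZKSCAN3, with genes of chaperone-mediated autophagy, in which LAMP2 acts. Of these, 7 had positive and 5 negative log2 fold changes, with a median of 0.07, against 49.3% positive and a median of -0.01 over all genes tested. The list median was 0.20 without shLAMP5 2, 0.01 without shLAMP5 4 and -0.07 with the replicate number as a block. TFE3 and TFEB were added after their values were seen. TFE3 measured 23.4, 8.59, 28.1 and 22.2 TPM in shLAMP5 1 to 4, against 13.1 and 9.55 TPM in shNT 1 and 2, lowest in shLAMP5 2. TFEB measured 18.4, 18.4, 34.0 and 17.1 TPM in shLAMP5 1 to 4, against 15.7 and 15.5 TPM in shNT 1 and 2, above both shNT libraries in every shLAMP5 library. CTSA, the protective protein that cleaves LAMP2, had a log2 fold change of 0.66 and MITF 0.51. HSPA8, the chaperone that delivers substrates to LAMP2, measured 1696 ± 343 TPM in shLAMP5 (SD, n = 4) and 2582 ± 289 TPM in shNT (SD, n = 2), below both shNT libraries in all 4, with a log2 fold change of -0.62, and the chaperone HSP90AA1 had -0.56. Of the 12, 2 (16.7%) lay below both shNT libraries in all 4 and 1 (8.33%) above both, against 13.5% and 8.25% of all genes. None of the 12 passed the test, with a smallest limma adjusted p of 0.517.

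Other proteins of the lysosomal membrane mostly had small positive differences. Of 30 genes, all tested, 26 had positive log2 fold changes, with a median of 0.33, against 49.3% and a median of -0.01 over all genes tested. Of the 30, 6 (20.0%) exceeded both shNT values in every shLAMP5 library and 0 were below both in every one, against 8.25% and 13.5% of all genes. Without shLAMP5 2 that was 16 of the 30, against 22.2% of all genes. This list was chosen with earlier results of these data known, so these counts are no support for a difference. None passed the test (smallest limma adjusted p 0.524). TMEM175, a lysosomal potassium channel, measured 19.8 ± 1.93 TPM in shLAMP5 (SD, n = 4) and 13.6 ± 0.289 TPM in shNT (SD, n = 2), a log2 fold change of 0.51. SCARB2, which carries glucocerebrosidase to lysosomes, had 0.77. The abundant tetraspanin CD63 measured 538, 348, 607 and 499 TPM in shLAMP5 1 to 4, against 354 and 353 TPM in shNT 1 and 2, a flat pair of controls like that of CD68 but with shLAMP5 2 just below it. LAPTM5, a lysosomal protein of blood cells, had 0.56, and TMEM192 and LAPTM4B had -0.28 and -0.33.

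The adaptors, tethers and small GTPases that bring LAMP proteins to lysosomes had values on both sides of 0. The list median was a log2 fold change of 0.05, with 17 of 27 genes positive, and it was -0.01 without shLAMP5 1 and 0.19 without shLAMP5 2. Of the 27, 2 exceeded both shNT values in every shLAMP5 library and 1 was below both in every one (7.41% and 3.70%). The shares over all genes tested were 8.25% and 13.5%. Without shLAMP5 2 the counts were 13 above and 1 below, against 22.2% and 16.9% of all genes. AP1S2 and AP2A1, adaptor subunits, had log2 fold changes of 0.48 and 0.33, and GGA1, an adaptor of the Golgi, and RAB7A, the late endosomal GTPase, had -0.28 and -0.10. The subunits AP2M1, which binds tyrosine signals such as those of LAMP tails, and AP2S1 were the most abundant, at 205 ± 29.9 and 171 ± 35.1 TPM in shLAMP5 (SD, n = 4) and 210 ± 14.1 and 172 ± 11.5 TPM in shNT (SD, n = 2). None of the 27 passed the test, with a smallest limma adjusted p of 0.59.

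Because CD68 is also a marker of monocytes and macrophages, its values were set beside 19 other markers of those cells. Of these, 18 had a row and 11 were tested, with 10 of them positive. The list median was 0.92, with 0.58 without shNT 2 and 1.09 without shLAMP5 2. Of the 11, 5 (45.5%) exceeded both shNT values in every shLAMP5 library, against 8.25% of all genes. The markers were chosen with earlier results of these data known, so this count is no support for a difference. The adaptors TYROBP and FCER1G had log2 fold changes of 1.21 and 1.76, the receptor CSF3R 1.09 and the scavenger receptor MSR1 -0.25, and none passed the test (smallest limma adjusted p 0.252). TYROBP measured 692, 363, 829 and 710.4 TPM in shLAMP5 1 to 4, against 261 and 276 TPM in shNT 1 and 2, the same order of libraries as CD68. The markers of mature monocytes and macrophages CD14 and CD163 stayed at or below 1.39 and 1.07 TPM. The summed level of the list ran from 829.4 to 1625 TPM in shLAMP5 and from 503.5 to 551.3 TPM in shNT. Its part in the CD68 result was not tested.

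Relative to the shNT mean on the log2(TPM + 1) scale, CD68 stood at 1.30, 0.32, 1.69 and 1.37 in shLAMP5 1 to 4. LAMP1 stood at 0.81, -0.34, 0.88 and 0.96. The mean of the other lysosomal membrane genes stood at 0.37, -0.05, 0.52 and 0.34, and that of the monocyte and macrophage markers at 0.60, 0.64, 1.57 and 0.70. The mean over all genes tested stood at 0.05, -0.14, 0.05 and 0.06. In shLAMP5 2 CD68 and the monocyte markers were above the shNT mean, LAMP1 and LAMP2 were below it and below the mean of all genes, and the lysosomal membrane genes were below the shNT mean but above the mean of all genes.

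**Figure D4:**
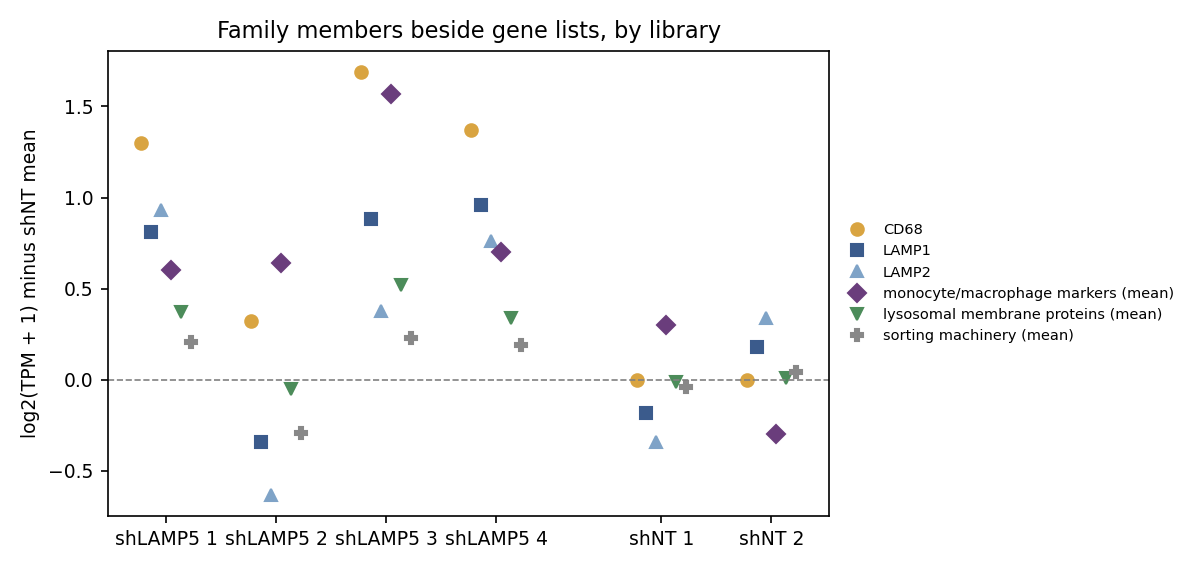
Difference from the shNT mean on the log2(TPM + 1) scale in each library, shLAMP5 left of shNT, for CD68, LAMP1 and LAMP2 and for the mean of 3 gene lists. CD68 is at or above 0.32 in every shLAMP5 library, while LAMP1 and LAMP2 are at -0.34 and -0.63 in shLAMP5 2.

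LAMP5 is known for its work in plasmacytoid dendritic cells, whose markers were mostly low here. Of 10 markers, 9 had a row and 5 were tested, with 3 positive values and a median of 0.38, which was -0.11 without shNT 2 and 0.94 without shNT 1. CLEC4C stayed at or below 1.0 TPM and TCF4 had a log2 fold change of -0.01. NRP1 and IL3RA, which myeloid cells also make, had 0.87 and 0.48, and DERL3 -0.19, none past the test (smallest limma adjusted p 0.692). The receptor whose trafficking LAMP5 affects in those cells, TLR9, was listed at up to 0.886 TPM and was not tested, and TLR7 at up to 0.553 TPM. UNC93B1, which escorts these receptors, measured 109, 62.9, 109.6 and 116 TPM in shLAMP5 1 to 4, against 56.1 and 86.6 TPM in shNT 1 and 2, with shLAMP5 2 between the shNT libraries. Of the 16 genes listed for the endosomal Toll-like receptor pathway, 12 were tested, 8 with positive values. The median was 0.22, or 0.05 without shNT 2. In every shLAMP5 library 2 of the 12 exceeded both shNT values, and without shLAMP5 2 that was 6, against 8.25% and 22.2% of all genes. Those 2, TLR8 and LY96, were under 1 TPM in both shNT libraries and passed the filter only through shLAMP5. The filter thus favoured this outcome, and the count is no support for a difference. Without a filter the list median was 0.12. LY96 is a co-receptor of TLR4 at the cell surface and is not specific to endosomal receptors. TLR8 and LY96 measured 3.07 ± 1.94 and 2.33 ± 0.556 TPM in shLAMP5 (SD, n = 4). In shNT they measured 0.647 ± 0.283 and 0.728 ± 0.0832 TPM (SD, n = 2), and their log2 fold changes were 1.19 and 0.93. IRAK4 and TRAF6, signalling proteins downstream, had -0.26 and -0.17, and the chaperones HSP90B1 and CNPY3 had 0.19 and 0.27. None of the 12 passed the test, with a smallest limma adjusted p of 0.491, that of LY96.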

How the data were processed

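RNA of 4 shLAMP5 and 2 shNT libraries was analysed. The authors deposited 1 table of 39771 Ensembl gene rows, whose values were read as TPM: the header states no unit, but the values are fractional and total between 897026 and 912565 in each library. The submitters' processing notes name kallisto and the build hg19; the sources used here do not give its version, the transcripts used, the step to genes or the use of strand. Groups came from the titles. A total of 35558 rows were matched to a symbol. No gene coordinates of the annotation are given, since its build differs from that of the files; the promoter coordinates are those of the RefSeq sequences.

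Differences were tested in R 4.3.3 with limma 3.58.1, using its trended variance, on log2(TPM + 1). The 13072 genes that reached 1 TPM in 2 or more libraries entered, with Benjamini-Hochberg adjustment over all of them and a threshold of 0.05. The log2(TPM + 1) scale understates the change of low genes. Single values had an exact two-sided permutation test, the share of the 15 possible labelings with at least the observed absolute difference. Lists are described by counts and medians only. The members, lists and tests were chosen with earlier results of these data known. The named genes were the members, the 3 genes most like each tested member, and from each list the 2 with the smallest p in each direction and the 2 most abundant; not all of these are printed. Outside this rule, TFE3, TFEB, UNC93B1, LAMP5-AS1 and the markers given by their range or highest level were picked with their values known. The limma fit was run on simulated data with independent normal noise for each gene. The simulation held no shift of a whole library, such as that of shLAMP5 2, and does not cover that case. Alternatives were pseudocounts of 0.1 and 5, no filter, a minimum of 10 TPM, median scaling, quantile normalization, protein-coding rows only, no trend, library weights, the replicate number as a block, and leaving out libraries. Python 3.11.15 with pandas 2.3.3 and matplotlib 3.10.9 made the tables and plots.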

Additional observations from a re-analysis of the deposited data

Results flagged for a closer look

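Each of 96 values was examined for 1 of the 4 shLAMP5 libraries lying far from the other 3 by Dixon's test, in which the ratio given is the gap to the nearest library divided by the whole range of the 4. Chance picks out about 1 in 20 such groups, and 11 were picked out here; the shNT group is too small for this. The 96 values share the same 4 libraries and in part the same genes, so the 11 are not separate findings. In 9 of the 11 the library was shLAMP5 2, each time as the lowest, and in the other 2 it was shLAMP5 3, as the highest.

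LAMP1 had a ratio of 0.836, with shLAMP5 2 at 134 TPM. The summed TPM of the family had 0.938 (372 TPM in shLAMP5 2), the sum without LAMP5 0.95 (306 TPM) and the mean log2 level of the tested members 0.893. Among other genes named, AP2M1 had 0.903 (160.1 TPM), CLDN12 0.951 (9.49 TPM) and LAPTM5 0.837 (371 TPM). The mean log2 level of the sorting genes had 0.904 and that of the chaperone-mediated autophagy and transcription factor list 0.905. In shLAMP5 3, MGAT1 had 0.863, at a high value of 205 TPM, and the monocyte and macrophage list 0.896, at a high mean of 5.66.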

How the results depend on the processing

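LAMP5 kept its negative and CD68, LAMP1 and LAMP2 their positive log2 fold changes under all 17 alternatives, from -1.90 to -1.17, 0.808 to 1.45, 0.237 to 0.884 and 0.0214 to 0.725. The 3 ratios of LAMP5 kept their direction under the 13 alternatives that can change them; filters, trend and weights do not enter them. With library weights, which gave shLAMP5 2 a weight of 0.193 and shLAMP5 4 one of 3.41, LAMP5 (-1.40, limma adjusted p 0.0302) and CD68 (1.34, limma adjusted p 0.0242) passed the test, with 116 genes called higher and 94 lower; under the other alternatives their adjusted p reached up to 1.0. Without a filter 14 genes were called lower. The replicate block, a model with the number in the titles, rests on 2 pairs of libraries and called 7 genes higher and 9 lower, none a family member; same-numbered libraries deviated against each other (r -0.52 and -0.474 across genes), and the titles do not say what the number marks. Among list medians, fibroblast and packaging cell markers (0.41, with 3 of 8 tested) moved to -0.171 with weights and lay between 0.0186 and 0.639 with libraries left out, leukaemia markers (0.26) moved to -0.0535 under the block, plasmacytoid markers lay between -0.108 and 0.944 and endosomal Toll-like receptor genes between 0.0524 and 0.23 with 1 library left out, and at 0.347 without shNT 1 and shLAMP5 2 together. The median of the glycan enzymes (0.17) lay between -0.00669 and 0.307 and that of the autophagy and transcription factor list (0.07) between 0.00903 and 0.203 with 1 library left out. Under the block the medians of these 2 lists and of the sorting genes were -0.0747, -0.07 and -0.0745, and without a filter that of the monocyte and macrophage markers was 0.573. The cause of these moves was not tested. Leaving out 1 shNT library leaves 1, whose spread is then assumed to be that of shLAMP5. The depth behind the values is unknown.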

Other observations

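LAMP proteins carry long polylactosamine chains, which galectins bind. Of 15 genes for N-glycan branching and polylactosamine, 8 (53.3%) had positive log2 fold changes, against 49.3% of all genes tested, and none passed the test (smallest limma adjusted p 0.528). The median was 0.17, but 0.31 without shLAMP5 2, 0.03 without shLAMP5 4, 0.07 without shLAMP5 1, -0.00669 without shNT 1 and -0.0747 with the replicate number as a block. MGAT4B and MGAT1, which add branches, had 0.63 and 0.49. ST3GAL4, a sialyltransferase, measured 24.7 ± 6.38 TPM in shLAMP5 (SD, n = 4) and 36.1 ± 2.91 TPM in shNT (SD, n = 2). It was below both shNT libraries in all 4 (log2 fold change -0.56, limma adjusted p 0.575). Of the 15, 1 (6.67%) lay below both in this way and 1 (6.67%) above both. The shares over all genes tested were 13.5% and 8.25%. FUT4 had -0.36. Of 5 galectins, 4 had positive values. LGALS3 measured 76.2, 229, 372 and 81.0 TPM in shLAMP5 1 to 4, against 122 and 45.0 TPM in shNT 1 and 2. Its high libraries were shLAMP5 2 and 3 and shNT 1, of which only shLAMP5 3 was also high for LAMP1. The log2 fold change of LGALS3 was 1.02, that of LGALS1 0.35, of LGALS12 0.56 and of LGALS9 -0.21, none past the test (smallest limma adjusted p 0.684).

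Of the markers of T cells and B cells, 1 each was tested, CD3D and CD79A, with log2 fold changes of 0.44 and 0.31. CD79A passed the filter only through shLAMP5 libraries. Of the markers of fibroblasts and packaging cells, KRT8, COL1A1 and KRT18 were tested, with 0.51, 0.41 and -0.17, and none passed. The median of these markers was 0.061 without shLAMP5 2. Of the leukaemia markers, 7 of 11 had positive values; PTPRC had 0.79, CEBPA 0.76, MPO -0.80, HOXA10 -0.20, SPI1 0.36 and FLT3 -0.10, none past the test (smallest limma adjusted p 0.541).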
